A study of Homo sapiens with 3 samples.

Results

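Fatty acid oxidation enzymes were examined as a set of 9 genes, CPT1A, CPT2, ACADVL, ACADM, HADHA, HADHB, HADH, ETFDH and PDK4, taken by name from a table of read counts for 58884 genes. The names were matched to Ensembl identifiers through GENCODE release 29. The counts come from LNCaP, an established human prostate cancer line that carries androgen receptor and secretes prostate-specific antigen. Its cells were kept for 72 h, after a first 24 h in full medium, in medium that held 2% fetal bovine serum and 50% conditioned medium. That conditioned medium was PPAT-CM, which the labels mark as tumor, PVAT-CM, which they mark as normal, or control-CM. The series title gives PPAT as periprostatic adipose tissue, and PVAT is not spelled out in the labels. Each medium had 1 library, so the 3 comparisons between media have no replicate check and carry no p-value. The study set out to compare RNA expression between cells in these media.

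Fatty acid oxidation takes place mainly in the mitochondrial matrix. Long-chain fatty acids are activated to acyl-CoA and passed across the mitochondrial membranes as carnitine esters, with CPT1A on the outer membrane as the gate and CPT2 on the inner membrane restoring the acyl-CoA. Each turn of the spiral then removes a short carbon unit through an acyl-CoA dehydrogenase, a hydratase, a hydroxyacyl-CoA dehydrogenase and a thiolase, and ETFDH hands the electrons of the first step to ubiquinone. PDK4 stands outside the spiral: it phosphorylates and so restrains pyruvate dehydrogenase, and it is a textbook target of PPAR nuclear receptors when cells shift from glucose to fat. Prostate epithelial tumors are known for relying on fatty acids more than many other tumors do.

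Total counts of a library ranged over 14174241 to 16965584. Mitochondrially encoded genes made up 15.5% of them in PPAT-CM, 21.1% in PVAT-CM and 30.8% in control-CM, and counts were therefore scaled with TMM factors, which balance libraries on the bulk of genes. Of the 9 genes 8 had a mean raw count of at least 50 and entered the ratios, with PDK4 left out, and 12256 genes of the whole table did. The 9 luminal prostate markers checked were all detected, KLK2 being the lowest with 348 counts in PPAT-CM, 646 in PVAT-CM and 740 in control-CM. Of 11 adipocyte markers none reached the mean count of 50. The adipocyte markers ADIPOQ, LEP, FABP4, LPL and RBP4 had 0 counts in every library, while the 11 together had 185 counts in PPAT-CM, 58 in PVAT-CM and 91 in control-CM. PLIN1, a lipid droplet coat protein, had 89 of these in PPAT-CM, 27 in PVAT-CM and 13 in control-CM, and GPD1, a glycerol phosphate dehydrogenase, had 47, 5 and 27 in the same order. PLIN4, with 33, 19 and 34, and LIPE, with 14, 7 and 17, were highest in control-CM. The part of these markers in the results was not tested. In such bulk RNA, fewer cells with a transcript and less of it per cell cannot be told apart.

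Promoter windows of 4 of the genes are shown because HADHA lies head to head with HADHB and the 2 differed between media by like amounts, HADH had the highest ratio of PPAT-CM to control-CM, and CPT1A and CPT2 had the lowest. The windows are RefSeq sequences of build GRCh38.p14, each running from 250 bases before to 50 bases after a gene start, and capitals mark the letters of GGGCGG (GC box) or CCAAT on either strand.
HADHA: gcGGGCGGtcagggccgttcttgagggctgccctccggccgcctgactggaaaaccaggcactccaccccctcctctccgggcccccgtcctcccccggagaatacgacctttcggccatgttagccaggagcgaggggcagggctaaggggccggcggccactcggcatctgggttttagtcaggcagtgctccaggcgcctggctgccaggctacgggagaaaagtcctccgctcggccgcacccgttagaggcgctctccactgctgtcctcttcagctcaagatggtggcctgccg
HADH: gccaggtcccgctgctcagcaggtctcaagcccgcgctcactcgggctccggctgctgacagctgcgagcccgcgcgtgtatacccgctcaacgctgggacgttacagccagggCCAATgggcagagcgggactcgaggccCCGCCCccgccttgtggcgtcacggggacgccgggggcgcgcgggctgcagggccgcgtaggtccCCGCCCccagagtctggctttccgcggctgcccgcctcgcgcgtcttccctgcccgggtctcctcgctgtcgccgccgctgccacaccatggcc
CPT1A: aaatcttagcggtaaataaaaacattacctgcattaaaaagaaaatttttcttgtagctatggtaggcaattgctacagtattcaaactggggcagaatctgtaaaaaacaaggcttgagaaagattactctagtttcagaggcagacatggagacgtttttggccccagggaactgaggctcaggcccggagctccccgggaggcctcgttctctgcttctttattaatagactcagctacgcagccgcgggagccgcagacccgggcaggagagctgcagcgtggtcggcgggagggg
CPT2: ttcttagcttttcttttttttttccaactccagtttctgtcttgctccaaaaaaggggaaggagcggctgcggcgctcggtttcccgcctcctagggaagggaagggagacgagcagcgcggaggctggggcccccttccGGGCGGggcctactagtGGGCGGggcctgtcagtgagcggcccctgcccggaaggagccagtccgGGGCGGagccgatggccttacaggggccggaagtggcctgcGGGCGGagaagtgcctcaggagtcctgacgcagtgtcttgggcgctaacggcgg
They lie at chr2:26244583-26244882 on the minus strand for HADHA, chr4:107989639-107989938 on the plus strand for HADH, chr11:68844228-68844527 on the minus strand for CPT1A and chr1:53196574-53196873 on the plus strand for CPT2. The start sites of HADHA and HADHB were 307 bases apart on opposite strands, and 194 bases of the HADHA window, positions 26244689 to 26244882, belong to the HADHB window too.

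The letters differed between these windows. GGGCGG was found 4 times in the CPT2 window, 2 times in that of HADH, 1 time in that of HADHA and 0 times in that of CPT1A, and it occurs in 45.0% of the 35116 promoter windows of the table. CCAAT was found in the HADH window alone of the 4 printed, against 34.6% of all windows. Another HADH window, at chr4:108004361-108004660 and not printed, held neither GGGCGG nor CCAAT. RefSeq windows were at hand for 8 of the 9 genes, 10 windows in all. None of the 10 held 2 copies of AGGTCA with 1 base between them, the element that PPAR binds with RXR, on either strand, and 0.0228% of all windows did. None held TCAAGGTCA, the element of estrogen-related receptors, and 0.353% of all windows did. These are matches of letters only.

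The carnitine step came first. CPT1A (ENSG00000110090, GRCh38 chromosome 11, 68754620 to 68844410) had 2784 counts in PPAT-CM, 2536 in PVAT-CM and 2705 in control-CM. In scaled CPM, the count per 1000000 counts of the TMM-adjusted library total, that was 151 in PPAT-CM, 178 in PVAT-CM and 178 in control-CM, so PPAT-CM was the low library. Its ratio of PPAT-CM to control-CM was 0.849 with a 95% counting interval of 0.805 to 0.895, and that of PPAT-CM to PVAT-CM was 0.851 (0.806 to 0.899). The ratio of PVAT-CM to control-CM was 0.997 (0.944 to 1.05). All intervals here come from an exact conditional binomial calculation and cover counting error only, not the spread between cultures, which was not measured.

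CPT2 (ENSG00000157184, chromosome 1, 53196429 to 53214197) had 291 counts in PPAT-CM, 320 in PVAT-CM and 341 in control-CM, or 15.8, 22.4 and 22.5 scaled CPM in the same order. Like CPT1A, it was low in PPAT-CM and about equal in the other media. The ratio was 0.704 (0.600 to 0.826) for PPAT-CM against control-CM, 0.705 (0.599 to 0.829) for PPAT-CM against PVAT-CM and 0.998 (0.854 to 1.17) for PVAT-CM against control-CM. In the first of these, 88.8% of the 12256 genes had a higher ratio than CPT2. Over the 3 libraries its range, 0.51 on the log2 scale, was the widest of the 8 genes. CPT2 shares 1151 exonic bases with an antisense gene, AL606760.2, that had at most 8 counts in a library, and 99 with CZIB, whose ratio of PPAT-CM to control-CM was 0.742.

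Among the acyl-CoA dehydrogenases, ACADVL acts on very long and long chains and ACADM on medium chains. ACADVL (ENSG00000072778, chromosome 17, 7217125 to 7225273) had 21846 counts in PPAT-CM, 13870 in PVAT-CM and 18542 in control-CM, which made 64.6%, 59.9% and 67.7% of the counts of all 9 genes in those libraries. It stood at 1188 scaled CPM in PPAT-CM, 973 in PVAT-CM and 1222 in control-CM, so PVAT-CM was the low library. The ratio of PVAT-CM to control-CM was 0.796 (0.778 to 0.814), that of PPAT-CM to control-CM 0.972 (0.953 to 0.991) and that of PPAT-CM to PVAT-CM 1.22 (1.20 to 1.248). ACADVL shares 85 exonic bases with DLG4 on the other strand, whose ratio was 0.798 for PVAT-CM against control-CM and 0.806 for PPAT-CM against control-CM. The part of such overlaps in the ratios was not tested, and the strand setting of the counting is not given in the sources used here.

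ACADM (ENSG00000117054, chromosome 1, 75724347 to 75787575) had 1967 counts in PPAT-CM, 1662 in PVAT-CM and 1659 in control-CM. These were 107, 117 and 109 scaled CPM in the same order, the narrowest range of the 8 genes at 0.12 on the log2 scale. Its interval included 1 against control-CM in PPAT-CM, at 0.978 (0.916 to 1.04), and in PVAT-CM, at 1.07 (0.995 to 1.14). For PPAT-CM against PVAT-CM the ratio was 0.918 (0.859 to 0.980). ACADM shares 157 exonic bases with RABGGTB on the same strand, whose ratio of PPAT-CM to control-CM was 0.943.

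The later steps of the spiral came next. HADHA and HADHB encode the subunits of the mitochondrial trifunctional protein, which carries the hydratase and long-chain hydroxyacyl-CoA dehydrogenase activities on the one and the thiolase on the other. HADHA (ENSG00000084754, chromosome 2, 26190635 to 26244726) had 2175 counts in PPAT-CM, 1466 in PVAT-CM and 1291 in control-CM, or 118, 103 and 85.1 scaled CPM in that order. HADHB (ENSG00000138029, chromosome 2, 26243170 to 26290468) had 3093 counts in PPAT-CM, 2216 in PVAT-CM and 1884 in control-CM, or 168, 155 and 124 scaled CPM. Both genes were highest in PPAT-CM, intermediate in PVAT-CM and lowest in control-CM. HADHA was 1.39-fold higher in PPAT-CM than in control-CM (1.30 to 1.49) and HADHB 1.35-fold higher (1.28 to 1.44). In PVAT-CM against control-CM the ratios were 1.21 (1.12 to 1.30) for HADHA and 1.251 (1.18 to 1.33) for HADHB, and in PPAT-CM against PVAT-CM they were 1.15 (1.08 to 1.23) for HADHA and 1.08 (1.02 to 1.14) for HADHB. The 2 processed pseudogene rows of HADHA, HADHAP1 and HADHAP2, held at most 4 counts in any library.

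HADH, the hydroxyacyl-CoA dehydrogenase for medium and short chains (ENSG00000138796, chromosome 4, 107989714 to 108035175), had 1133 counts in PPAT-CM, 711 in PVAT-CM and 660 in control-CM. That was 61.6 scaled CPM in PPAT-CM, 49.9 in PVAT-CM and 43.5 in control-CM, the same order of media as for the trifunctional subunits. Its ratio was 1.42 (1.29 to 1.56) for PPAT-CM against control-CM, the highest of the 8 genes, with 15.6% of all 12256 genes at a higher ratio. It was 1.15 (1.03 to 1.28) for PVAT-CM against control-CM and 1.24 (1.12 to 1.36) for PPAT-CM against PVAT-CM.

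ETFDH, the electron transfer flavoprotein dehydrogenase of the inner membrane (ENSG00000171503, chromosome 4, 158672125 to 158709623), had 539 counts in PPAT-CM, 385 in PVAT-CM and 324 in control-CM. It stood at 29.3 scaled CPM in PPAT-CM, 27.0 in PVAT-CM and 21.4 in control-CM, again with PPAT-CM high and control-CM low. The ratio to control-CM was 1.37 (1.19 to 1.58) in PPAT-CM and 1.26 (1.09 to 1.47) in PVAT-CM, and the interval of PPAT-CM against PVAT-CM, 1.09 (0.951 to 1.24), included 1. ETFDH shares 490 exonic bases, 10.9% of its exons, with PPID on the other strand. PPID had 860 counts in PPAT-CM, 421 in PVAT-CM and 394 in control-CM, a ratio of 1.80 for PPAT-CM against control-CM. C4orf46, also on the other strand, shares 131 exonic bases with ETFDH. It had 119 counts in PPAT-CM, 50 in PVAT-CM and 58 in control-CM, a ratio of 1.69 for PPAT-CM against control-CM. The part of PPID and C4orf46 in the ETFDH counts was not tested.

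**Figure D1:**
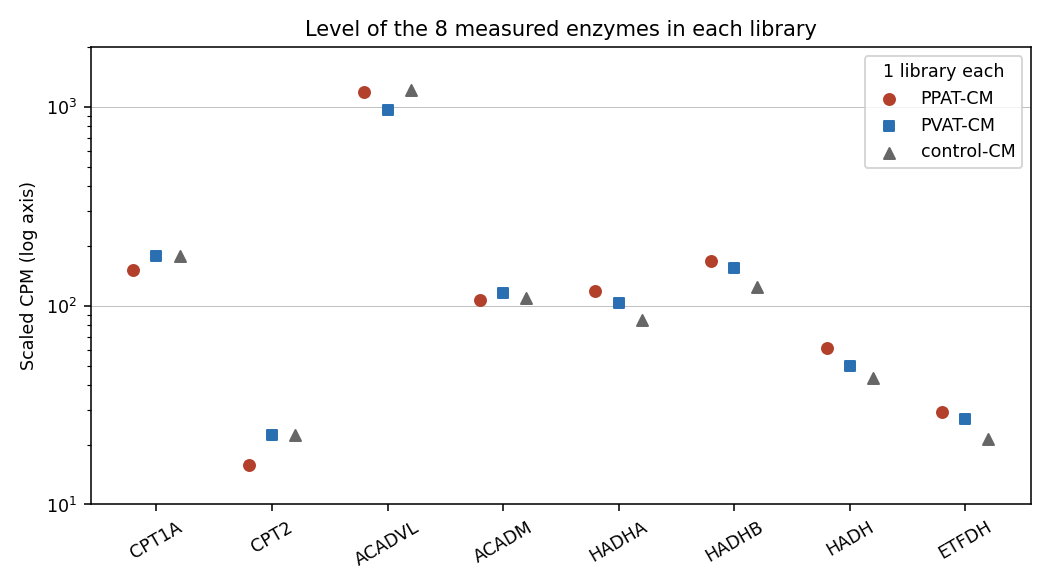
Level of the 8 measured fatty acid oxidation enzymes in scaled CPM (log axis), with 1 point for each library. HADHA, HADHB, HADH and ETFDH are highest in PPAT-CM and lowest in control-CM, while CPT1A and CPT2 are lowest in PPAT-CM and ACADVL is lowest in PVAT-CM.

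PDK4 (ENSG00000004799, chromosome 7, 95583499 to 95596491) was at the limit of detection, with 1 count in PPAT-CM, 0 in PVAT-CM and 0 in control-CM. The limit that 0 counts set, taken as 3 counts in the library, was 0.210 scaled CPM in PVAT-CM and 0.198 in control-CM, so no ratio is given and a difference between media was not detectable at this depth. The other pyruvate dehydrogenase kinases were present in all 3 libraries. PDK1 had 486 counts in PPAT-CM, 390 in PVAT-CM and 530 in control-CM. PDK2 had 215, 131 and 113 in the same order, and PDK3 had 296, 243 and 257. Of all PDK counts, PDK4 held 0.10% in PPAT-CM (1 of 998, exact Clopper-Pearson interval 0.00254% to 0.557%), against 0 of 764 in PVAT-CM and 0 of 900 in control-CM. The upper ends of the same exact interval were 0.482% in PVAT-CM and 0.409% in control-CM, while the limit of 3 counts gives lower values, 0.393% in PVAT-CM and 0.333% in control-CM. PDK2, which with the other kinases acts on the same enzyme complex, took 21.5% of the PDK counts in PPAT-CM (19.0% to 24.2%), 17.1% in PVAT-CM (14.5% to 20.0%) and 12.6% in control-CM (10.5% to 14.9%). PDK1 took 48.7% in PPAT-CM (45.6% to 51.8%), 51.0% in PVAT-CM (47.4% to 54.6%) and 58.9% in control-CM (55.6% to 62.1%). Such shares within a library do not depend on how libraries are scaled.

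Read together, none of the 8 measured genes reached 1.5-fold in either direction in any of the 3 comparisons. For PPAT-CM against control-CM, the share of all 12256 genes past that fold was 12.0% on the higher side and 8.71% on the lower. For PVAT-CM against control-CM these shares were 3.14% and 3.48%, and for PPAT-CM against PVAT-CM 8.56% and 6.07%. With a weaker threshold, at least 25% higher or 20% lower, HADHA, HADHB, HADH and ETFDH were higher and CPT2 was lower in PPAT-CM than in control-CM, 4 and 1 of 8, against 25.5% and 20.3% of all genes. In PVAT-CM against control-CM, HADHB and ETFDH were higher and ACADVL was lower at that threshold, 2 and 1 of 8, against 13.6% and 12.2% of all genes. These genes lay near the threshold, at 1.251, 1.26 and 0.796. With upper quartile factors they were at 1.24, 1.248 and 0.786, and with library totals at 1.37, 1.39 and 0.873. In PPAT-CM against PVAT-CM 0 were higher and CPT2 was lower, against 20.3% and 16.4%.

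The median log2 ratio of the 8 genes was 0.20 for PPAT-CM against control-CM, 0.14 for PVAT-CM against control-CM and 0.12 for PPAT-CM against PVAT-CM, beside medians over all genes of 0.03, 0.02 and 0.02. The first of these medians lies between genes on both sides, which ranged from -0.51 to 0.50. The 2 adipose media share the control-CM library, so their ratios to it are not independent of each other. The counting interval lay above 1 for 4 genes and below 1 for 3 in PPAT-CM against control-CM, against 35.0% and 29.0% of all genes. It lay above 1 for 4 and below 1 for 1 in PVAT-CM against control-CM, against 24.0% and 20.5% of all genes, and above 1 for 4 and below 1 for 3 in PPAT-CM against PVAT-CM, against 30.7% and 25.6%. Whether an interval excludes 1 depends on the number of counts as well as on the ratio. The 8 genes had mean counts from 317 to 18086, and the shares of all genes were not matched to them in depth. With library totals in place of TMM factors, HADHA, HADHB, HADH and ETFDH passed 1.5-fold in PPAT-CM against control-CM, at 1.64, 1.60, 1.67 and 1.62. That scaling raised the median of all genes by 0.24 on the log2 scale, and under it CPT1A, ACADM and ACADVL turned to 1.00, 1.16 and 1.15.

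**Figure D2:**
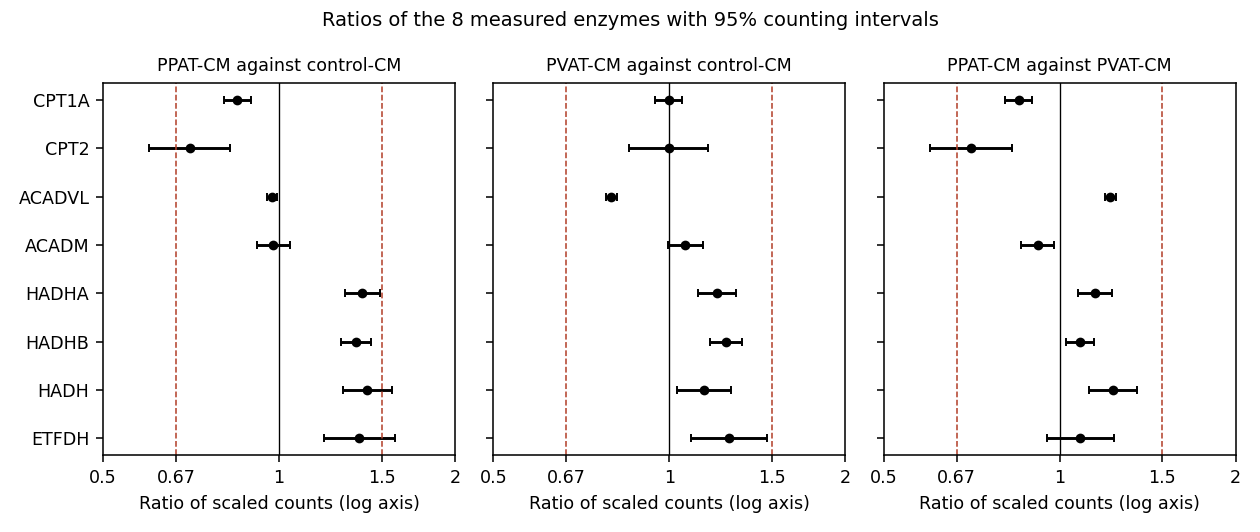
Ratio of scaled counts (log axis) for the 8 measured enzymes in the 3 comparisons, with 95% counting intervals as bars and dashed lines at 1.5-fold in each direction. No point lies past a dashed line, and in PPAT-CM against control-CM the lowest ratio, 0.704 for CPT2, and the highest, 1.42 for HADH, stand on opposite sides of 1.

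Ratios of counts within a library are free of the scaling between libraries. These pairs were set against HADHA after the values above were seen and are given as a description. HADHA had 0.703 counts for each HADHB count in PPAT-CM (0.665 to 0.743), 0.662 in PVAT-CM (0.619 to 0.707) and 0.685 in control-CM (0.638 to 0.736). The intervals of the 3 libraries overlap. Overlap does not show that the balance of the trifunctional subunits was alike, and a difference between libraries was not tested directly. For each HADH count there were 1.92 HADHA counts in PPAT-CM (1.79 to 2.06), 2.06 in PVAT-CM (1.88 to 2.26) and 1.96 in control-CM (1.78 to 2.15). For each ETFDH count there were 4.04 in PPAT-CM (3.67 to 4.44), 3.81 in PVAT-CM (3.40 to 4.27) and 3.98 in control-CM (3.52 to 4.51). These intervals too overlap between all libraries.

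Against the carnitine enzymes and ACADM the balance differed by more than counting error between PPAT-CM and control-CM. HADHA had 7.47 counts for each CPT2 count in PPAT-CM (6.61 to 8.48), 4.58 in PVAT-CM (4.06 to 5.19) and 3.79 in control-CM (3.36 to 4.28). For each CPT1A count there were 0.781 HADHA counts in PPAT-CM (0.738 to 0.827), 0.578 in PVAT-CM (0.542 to 0.617) and 0.477 in control-CM (0.446 to 0.510). For each ACADM count there were 1.11 in PPAT-CM (1.04 to 1.18), 0.882 in PVAT-CM (0.822 to 0.947) and 0.778 in control-CM (0.723 to 0.837). PPAT-CM was the high library and control-CM the low one in all 3 of these pairs. The intervals of PPAT-CM and control-CM were apart in each of the 3, and those of PVAT-CM and control-CM overlapped for CPT2 and ACADM. Overlap of separate intervals does not show that PVAT-CM and control-CM were alike in these pairs. For each ACADVL count there were 0.0996 HADHA counts in PPAT-CM (0.0952 to 0.104), 0.106 in PVAT-CM (0.1001 to 0.112) and 0.0696 in control-CM (0.0658 to 0.0737), so that here both adipose media lay above control-CM.

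**Figure D3:**
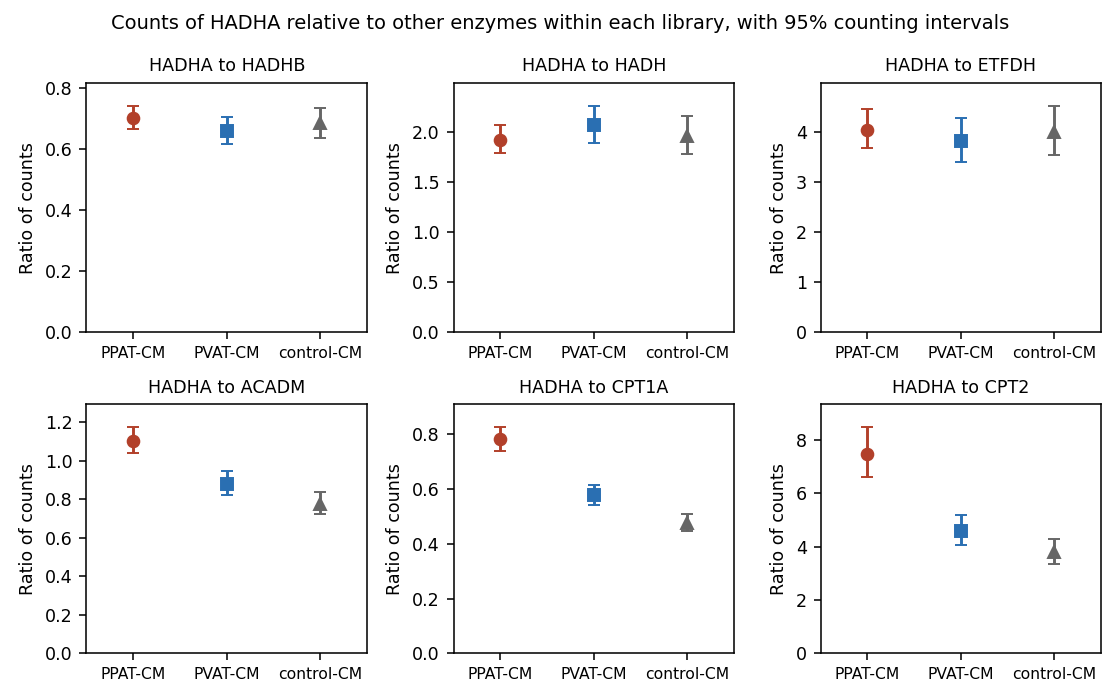
Counts of HADHA for each count of HADHB, HADH, ETFDH, ACADM, CPT1A or CPT2 within each library, from 0 upward, with 95% counting intervals. In the upper row the intervals of the 3 libraries overlap, while in the lower row PPAT-CM lies above control-CM, at 7.47 against 3.79 for CPT2.

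Levels between genes were compared per kilobase of exon. In PPAT-CM, ACADVL stood at 244 scaled CPM per kilobase, against 39.3 for HADHB, 27.0 for HADHA, 23.1 for CPT1A, 22.4 for ACADM, 6.52 for ETFDH, 5.10 for HADH and 1.51 for CPT2. ACADVL lay above 99.1% of all genes kept in PPAT-CM, 98.7% in PVAT-CM and 99.1% in control-CM by this measure. In control-CM, CPT1A, at 27.2 scaled CPM per kilobase, and ACADM, at 22.9, lay above HADHA, at 19.4, whereas by this length HADHA lay above both in PPAT-CM. The exons of all transcripts of HADH add up to 12086 bases and those of CPT2 to 10452, against 2032 and 3094 bases in their longest coding transcripts. With the longest coding transcript as the length, ACADM in PPAT-CM was at 40.8 scaled CPM per kilobase, HADHA at 38.9, HADH at 30.3, CPT1A at 28.9, ETFDH at 8.93 and CPT2 at 5.11. The places of ACADM, HADHA, CPT1A, HADH and ETFDH in this order thus depend on the length used. In PPAT-CM, CPT2 was the lowest of the 8 with either length. In control-CM, by the longest coding transcript, ETFDH, at 6.51, lay below CPT2, at 7.27.

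The gene with the widest range was CPT2, and the genes whose log2 levels over the 3 libraries lay closest to its own were DGKE, C2orf16 and ANK3-DT, with distances of 0.0063, 0.0068 and 0.0078. DGKE had 323 counts in PPAT-CM, 353 in PVAT-CM and 377 in control-CM. In the same order C2orf16 had 46, 51 and 54 counts and ANK3-DT had 88, 97 and 104. These distances are far smaller than the counting error. For CPT2 the interval of the log2 ratio of PPAT-CM to control-CM ran from -0.74 to -0.28. The order of these genes by distance is therefore not resolved. In all, 285 of the 12256 genes kept lay within a distance of 0.1.

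Around these enzymes, 9 wider lists with 137 genes were examined, of which 113 genes passed the filter. In PPAT-CM against control-CM 17 of these were past 1.5-fold on the higher side and 17 on the lower, beside 12.0% and 8.71% of all genes, and the numbers were 27 and 15 when library totals replaced TMM. Of the 17 lower genes 13 were mRNAs of the mitochondrial genome. For PVAT-CM against control-CM the numbers were 2 higher and 12 lower, the 12 all mitochondrially encoded, beside 3.14% and 3.48% of all genes, and they were 4 and 6 with totals. In PPAT-CM against PVAT-CM they were 10 and 6, 4 of the 6 mitochondrially encoded, beside 8.56% and 6.07% of all genes, and they were 16 and 4 with totals and 7 and 13 with upper quartile factors. In the uptake and activation list, 12 of 19 genes passed it, and 2 were at least 1.5-fold higher and 2 lower in PPAT-CM than in control-CM. The long-chain acyl-CoA synthetase gene ACSL5 had 130 counts in PPAT-CM, 18 in PVAT-CM and 10 in control-CM, a ratio of 10.7 (5.65 to 22.9) for PPAT-CM against control-CM. The medium-chain synthetase gene ACSM3 was 2.28-fold higher (1.73 to 3.03). The other synthetase genes ACSL6 and ACSL4 were lower, at 0.547 (0.384 to 0.773) and 0.570 (0.439 to 0.738). In PVAT-CM against control-CM 2 of the 12 were higher, ACSL5 on an interval that included 1 (0.838 to 4.64) and ACSM3 at 1.52 (1.12 to 2.09), and 0 were lower.

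Of the other carnitine shuttle genes 7 of 9 passed the filter. The carnitine-acylcarnitine carrier SLC25A20, which works between CPT1A and CPT2, lay on the other side of 1 from both in PPAT-CM against control-CM. It had 311 counts in PPAT-CM, 151 in PVAT-CM and 160 in control-CM, a ratio of 1.60 (1.32 to 1.95) for PPAT-CM against control-CM and 1.00 (0.798 to 1.26) for PVAT-CM against control-CM. It was the only 1 of the 7 past 1.5-fold in PPAT-CM against control-CM, beside 12.0% of all genes higher and 8.71% lower. In PVAT-CM against control-CM 0 of the 7 were, beside 3.14% and 3.48%. CPT1B, the muscle form, had 73 counts in PPAT-CM, 58 in PVAT-CM and 47 in control-CM, and CPT1C, the brain form, had 98, 49 and 72 in that order. CPT1C was 1.55-fold higher in PPAT-CM than in PVAT-CM (1.09 to 2.23). CPT1A held 94.2% of the counts of the 3 forms in PPAT-CM (93.3% to 95.03%), 96.0% in PVAT-CM (95.1% to 96.7%) and 95.8% in control-CM (94.98% to 96.5%).

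Among other mitochondrial beta-oxidation enzymes 14 of 16 passed the filter. In PPAT-CM against control-CM 3 were at least 1.5-fold higher and 0 lower, beside 12.0% and 8.71% of all genes. The median log2 ratio of the 14 was 0.22. ACAA2, the thiolase for medium chains, was 1.65-fold higher (1.38 to 1.97) and ECI2, an enoyl-CoA isomerase, 1.51-fold higher (1.34 to 1.70). ACAD8, which acts in valine breakdown, was 2.42-fold higher (2.24 to 2.63). In PVAT-CM against control-CM 0 of the 14 reached 1.5-fold, beside 3.14% of all genes higher and 3.48% lower, and their median was 0.05. The peroxisomal list, with 14 of 16 genes measured, had a median of -0.18 in PPAT-CM against control-CM and -0.11 in PVAT-CM against control-CM. The medians over all genes were 0.03 and 0.02. In PPAT-CM against control-CM 12 of the 14 peroxisomal genes had a ratio below 1. The share of all genes below 1 lay between 46.6% and 48.9%. Only HSD17B4, a multifunctional enzyme of peroxisomal oxidation, passed 1.5-fold, beside 12.0% of all genes higher and 8.71% lower. HSD17B4 had 13708 counts in PPAT-CM, 4246 in PVAT-CM and 4344 in control-CM. Its ratio was 2.60 (2.52 to 2.69). EHHADH, the other peroxisomal multifunctional enzyme, had a ratio of PPAT-CM to PVAT-CM of 0.565 (0.417 to 0.764).

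Of 20 receptor, coactivator and CPT1 control genes 17 passed the filter. In PPAT-CM against control-CM 1 was at least 1.5-fold higher and 1 lower, beside 12.0% and 8.71% of all genes. PPARA, the PPAR best known for fat oxidation in liver, had 184 counts in PPAT-CM, 155 in PVAT-CM and 137 in control-CM, and its interval of PPAT-CM against control-CM included 1 (0.883 to 1.39). PPARD likewise stood at 1.02 (0.922 to 1.13). PPARGC1A, a coactivator of PPARs, was near the limit of detection with 2 counts in PPAT-CM, 7 in PVAT-CM and 0 in control-CM. Its relative PPARGC1B was 1.70-fold higher (1.19 to 2.45) on 99 counts in PPAT-CM and 48 in control-CM. SIRT3, a mitochondrial deacetylase, was lower at 0.659 (0.598 to 0.727). Of 14 PPAR targets outside the spiral 6 passed the filter. In PPAT-CM against control-CM 2 of the 6 were at least 1.5-fold higher, beside 12.0% of all genes. Among the 2, TXNIP, a thioredoxin inhibitor that glucose-sensing factors also control, had 3472 counts in PPAT-CM, 59 in PVAT-CM and 92 in control-CM. Its ratio was 31.1 (25.3 to 38.7) for PPAT-CM against control-CM and 0.682 (0.483 to 0.956) for PVAT-CM against control-CM. In the latter comparison 0 of the 6 genes reached 1.5-fold, beside 3.14% of all genes higher and 3.48% lower.

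Ratios on the pyruvate side lay in both directions. All 13 genes of the pyruvate dehydrogenase list passed the filter. In PPAT-CM against control-CM 2 were at least 1.5-fold higher and 1 lower, beside 12.0% and 8.71% of all genes. The pyruvate carrier subunit MPC2 had 2424 counts in PPAT-CM, 2898 in PVAT-CM and 3888 in control-CM, a ratio of 0.514 (0.489 to 0.541). DLD, a subunit of the pyruvate dehydrogenase complex, was at 1.503 (1.40 to 1.62) and PDK2 at 1.57 (1.24 to 1.99). PDK1 was at 0.756 (0.667 to 0.857) and PDK3 at 0.950 (0.801 to 1.13).

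All 17 citrate cycle genes passed the filter, and 5 were at least 1.5-fold higher in PPAT-CM than in control-CM and 0 lower, beside 12.0% and 8.71% of all genes, with a median log2 ratio of 0.29. Among these the NADP-linked isocitrate dehydrogenase IDH2 was 3.62-fold higher (3.36 to 3.91), malate dehydrogenase MDH2 1.97-fold (1.85 to 2.09), citrate synthase CS 1.67-fold (1.58 to 1.77) and IDH3A 1.64-fold (1.29 to 2.09). In PVAT-CM against control-CM 0 of the 17 reached 1.5-fold, beside 3.14% of all genes higher and 3.48% lower. There 16 of the 17 had a ratio above 1. The share of all genes above 1 lay between 52.1% and 53.1%. The median was 0.22, beside 0.02 over all genes.

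The 13 mRNAs of the mitochondrial genome were lower in the adipose media, 13 of 13 past 1.5-fold in PPAT-CM and 12 of 13 in PVAT-CM against control-CM, with medians of -1.29 and -0.70. Of all genes, 8.71% and 3.48% were at least 1.5-fold lower in these comparisons. In PPAT-CM against control-CM the ratios were 0.330 for MT-ND3, 0.346 for MT-ND2, 0.355 for MT-CO2, 0.378 for MT-CYB, 0.398 for MT-ATP6 and 0.406 for MT-ND5. The 8 measured enzymes, all encoded in the nucleus, had ratios from 0.704 for CPT2 to 1.42 for HADH in the same comparison, 4 of them above 1 and 4 below. The part of the mitochondrial share of counts in these ratios was not tested beyond scaling. TMM factors computed without mitochondrial genes left all 8 enzymes inside their counting intervals.

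**Figure D4:**
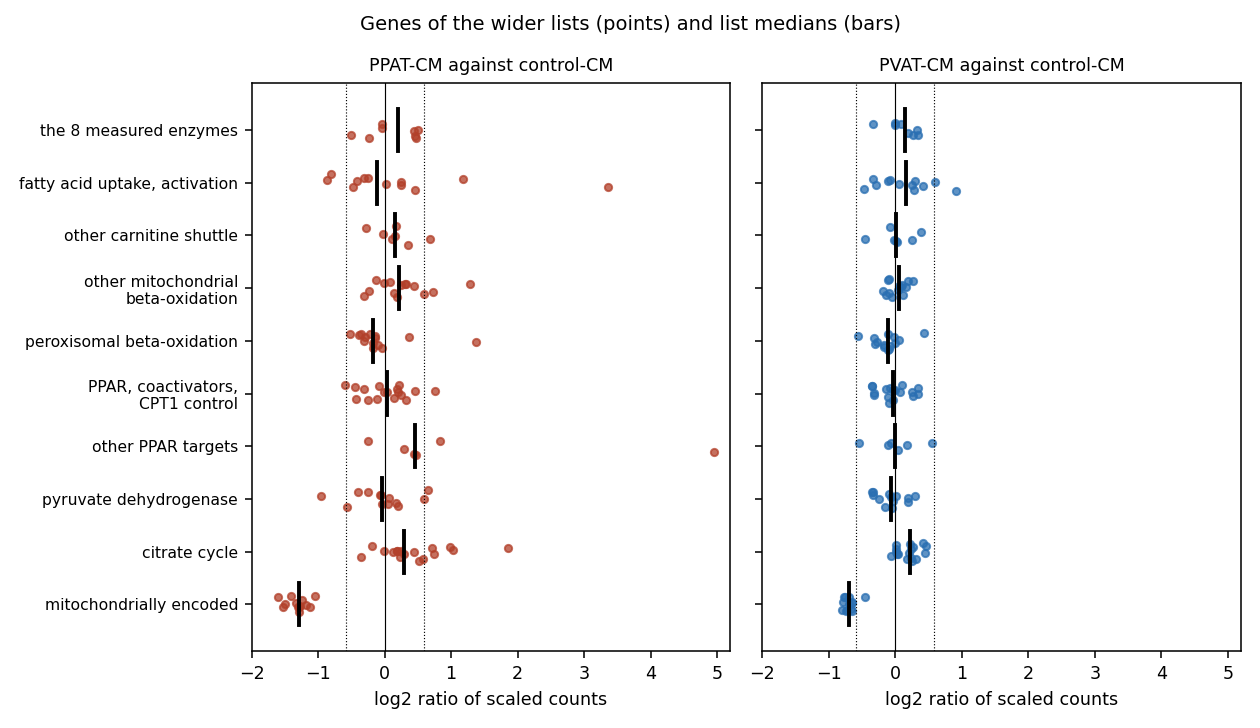
Log2 ratio of scaled counts of each measured gene in the 8 enzymes and 9 wider lists, for PPAT-CM and for PVAT-CM against control-CM, with bars at list medians and dotted lines at 1.5-fold. The 8 enzymes lie between the dotted lines in both panels, and the mitochondrially encoded mRNAs have medians of -1.29 and -0.70.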

How the data were processed

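RNA from 3 LNCaP libraries, 1 for each medium, was isolated on RNeasy columns and made into libraries with a KAPA mRNA HyperPrep kit, as the labels' protocols state. The authors deposited raw gene counts as whole numbers, with no normalization. Per the submitters' processing notes the build was GRCh38, and the tools named were HISAT2, featureCounts, edgeR, FastQC and Trimmomatic. No version, strand setting or annotation release is given in the sources used here.

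Symbols were found for 58876 of 58884 rows, and 58611 rows matched GENCODE release 29, which gave coordinates and exon lengths. Counts were scaled with TMM factors of edgeR 4.0.16 in R 4.3.3, which were 1.08 for PPAT-CM, 1.01 for PVAT-CM and 0.917 for control-CM. The filter kept genes whose raw counts averaged 50 or more. A pseudocount of 0.5 was added to scaled counts for log2 ratios, medians and thresholds. Printed ratios have none. A pair of counts both at or under 3 got no ratio, which left 12254 genes in PVAT-CM against control-CM. Python 3.11.15, numpy 2.4.6, pandas 2.3.3 and scipy 1.17.1 computed exact 95% intervals. The ratio and interval steps were tested on simulated counts. The simulation used counting error only and the same scaling factors as the analysis, so it tested neither the scaling nor a spread between cultures. Without molecular identifiers, reads are not independent molecules, and intervals and limits cover counting error only. With 1 library per medium no test has residual degrees of freedom.

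The enzymes and lists were chosen with earlier results of these data known. All 9 enzymes are named. From each wider list the text names genes past 1.5-fold with an interval that excludes 1 in any comparison, up to 6 by size, and a few fixed ones (PPARA, PPARD, PPARGC1A, CPT1B, CPT1C, SLC25A20, PDK1, PDK2 and PDK3). PDK4, below the filter, was not considered for the search of like patterns. Alternatives were DESeq2 1.42.0 size factors, totals, upper quartile factors, TMM without mitochondrial genes, filters at a mean of 10 or 200 or none, 5 as pseudocount, a 2-fold and a 25% threshold, an interval that excludes 1, and means in place of medians. Besides the adipocyte and luminal lists, fibroblast markers (8), leukocyte markers (12) and endothelial markers (7) were checked. The fibroblast list had 534 counts in PPAT-CM, 371 in PVAT-CM and 792 in control-CM, the leukocyte list 45, 24 and 23, and the endothelial list 43, 23 and 36. Of the fibroblast counts COL1A1 held 478, 323 and 718 in the same order. The fibroblast markers COL1A2, DCN, PDGFRA and THY1 had 0 counts in every library. Values of 2 genes of the wider lists are not reported here by name, while the list counts include them.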

Additional observations from a re-analysis of the deposited data

How the results depend on the processing

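No paired analysis was possible because each medium had 1 library. Of 192 values of single enzymes under alternatives, 172 lay inside the counting interval of the main value and 20 outside. The filter settings cannot change the ratio of an enzyme that they keep, so their values lay inside by construction. Those outside all came from library totals, except ACADVL with upper quartile factors. Direction changed in 7 of the 192, all of CPT1A, CPT2, ACADM or ACADVL. With library totals 4 enzymes were at least 1.5-fold higher in PPAT-CM against control-CM, in place of 0, and the medians became 0.44, 0.28 for PVAT-CM against control-CM and 0.22 for PPAT-CM against PVAT-CM. That scaling moved the median of all genes by 0.24, 0.13 and 0.11. With TMM factors, a threshold of 25% higher or 20% lower gave 4 higher and 1 lower enzymes in PPAT-CM against control-CM, 2 and 1 in PVAT-CM against control-CM, and 1 lower in PPAT-CM against PVAT-CM.

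For genes of the wider lists, 17 were higher and 17 lower in PPAT-CM against control-CM. The higher were 27 with totals and 7 at 2-fold, and at the 25% threshold 29 were higher and 27 lower. In PVAT-CM against control-CM 2 were higher and 12 lower. The higher were 4 with totals, 5 without a filter, 11 at 25%, 1 with upper quartile factors, with a pseudocount of 5 or with an interval that excludes 1, and 0 at 2-fold or when the mean count had to reach 200. The lower were 6 with totals, 0 at 2-fold and 24 at 25%. In PPAT-CM against PVAT-CM 10 were higher and 6 lower. The higher were 16 with totals, 5 at 2-fold and 25 at 25%, and the lower 13 with upper quartile factors, 1 at 2-fold and 22 at 25%. The cause of these changes was not tested, save that a threshold changes counts by construction. Depth limits PDK4 and PPARGC1A, and the spread between cultures was not measured for any gene.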
